A study of Mus musculus with 6 samples.

Results

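*Ikbke*, *Ctse*, *Rab7b*, *Ptprv*, *Rnpep* and *Lad1* lie along 4.58 Mb of mouse chromosome 1 (mm10, 131254343 to 135833342) and are 6 of the 12153 genes measured in Tregs sorted from B16 melanomas. They were chosen by their symbols, as neighbors that had already been seen to differ between *Nr3c1*-Foxp3Cre and control Tregs in these same libraries. The difference between the groups is therefore what picked them, and it is given below as a description that carries no test. Of the 6 genes, 3 were higher in *Nr3c1*-Foxp3Cre Tregs (*Ikbke*, *Ctse* and *Ptprv*) and 3 were lower (*Rab7b*, *Rnpep* and *Lad1*). *Lad1*, with a geometric mean of 72.5 CPM (read counts scaled to a common total) among controls, was near the bottom of the table in *Nr3c1*-Foxp3Cre Tregs, while *Ctse* was 8.51-fold higher, as a ratio of geometric means.

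B16.F10 melanoma cells were implanted into mice, and CD4+ CD25+ Tregs were sorted from the dissociated tumors 15 days later, according to the sample labels. The 3 control libraries came from mice labelled Nr3c1-flox, which carry a floxed *Nr3c1*, the gene of the glucocorticoid receptor (GR). The 3 *Nr3c1*-Foxp3Cre libraries came from mice labelled Nr3c1-flox_Foxp3-YFP/Cre, in which the *Foxp3* promoter also drives a YFP/Cre recombinase, so that GR is deleted in Tregs. By these labels the floxed allele was common to both groups, and the Cre allele was named for one of them. The deposited values name the control libraries WT, however, and the study in places calls its control mice WT. Whether the controls carried the floxed allele is not settled by these sources. The study's methods give a sort by Foxp3-YFP, an allele that the labels do not name for the control mice. Age and sex by library, the number of animals behind each library and the strain on which each allele was made are not given in the sources used here, and p-values measure the spread between these libraries.

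The proteins of these genes have little in common beyond their address. *Ikbke* encodes IKKε, a kinase that, like its relative TBK1, phosphorylates IRF3 and IRF7 and turns on type I interferon genes. *Ctse* encodes cathepsin E, an aspartic protease of endosomes, and *Rab7b* a small GTPase that directs traffic between late endosomes and the trans-Golgi network. *Rnpep* encodes aminopeptidase B, which trims arginine and lysine from the amino end of peptides, and *Lad1* encodes ladinin 1, a protein of anchoring filaments in epithelial basement membranes. *Ptprv* is the gene of OST-PTP, a receptor-type tyrosine phosphatase known from osteoblasts and testis, which GENCODE M21 annotates in the mm10 reference as a processed transcript rather than as a protein-coding gene. GR itself is a hormone-activated transcription factor that binds DNA at paired AGAACA half-sites.

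RefSeq start sites on GRCm38.p6 (mm10) were matched by symbol for 3 of the 6 genes, *Ikbke*, *Rnpep* and *Lad1*, and not for *Ctse*, *Rab7b* or *Ptprv*. Their promoters, from 250 bases before to 50 after the start, are shown because the level of a gene is set in part there. A promoter of *Ptpn7* is shown with them, at chr1:135132450-135132749 on the plus strand. Its window also holds the start of *Ptprv*, which is read in the opposite direction from 135132594. A further *Ptpn7* window, chr1:135133059-135133358 on the plus strand, is not shown. The other windows shown are chr1:135818348-135818647 on the plus strand for *Lad1*, chr1:135284035-135284334 on the minus strand for *Rnpep* and chr1:131279514-131279813 on the minus strand for *Ikbke*. Each is written 5′ to 3′ for its own gene, and capitals mark the motif matches described after them.
Lad1: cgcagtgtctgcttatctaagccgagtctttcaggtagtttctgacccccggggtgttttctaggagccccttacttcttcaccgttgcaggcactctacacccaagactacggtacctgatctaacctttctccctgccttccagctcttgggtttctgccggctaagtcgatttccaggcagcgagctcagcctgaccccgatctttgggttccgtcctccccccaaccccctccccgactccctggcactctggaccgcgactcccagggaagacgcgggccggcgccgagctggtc
Rnpep: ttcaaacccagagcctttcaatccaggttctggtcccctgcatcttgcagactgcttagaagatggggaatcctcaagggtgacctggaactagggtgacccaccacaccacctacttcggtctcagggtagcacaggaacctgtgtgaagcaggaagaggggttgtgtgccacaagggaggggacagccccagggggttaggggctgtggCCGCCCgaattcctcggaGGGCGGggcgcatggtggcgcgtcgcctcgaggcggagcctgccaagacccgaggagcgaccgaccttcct
Ikbke: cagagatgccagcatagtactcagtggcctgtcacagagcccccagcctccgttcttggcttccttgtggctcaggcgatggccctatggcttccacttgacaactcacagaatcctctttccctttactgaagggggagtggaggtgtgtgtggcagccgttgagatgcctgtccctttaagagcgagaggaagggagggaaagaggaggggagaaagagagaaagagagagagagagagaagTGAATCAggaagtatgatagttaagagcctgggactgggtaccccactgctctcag
Ptpn7: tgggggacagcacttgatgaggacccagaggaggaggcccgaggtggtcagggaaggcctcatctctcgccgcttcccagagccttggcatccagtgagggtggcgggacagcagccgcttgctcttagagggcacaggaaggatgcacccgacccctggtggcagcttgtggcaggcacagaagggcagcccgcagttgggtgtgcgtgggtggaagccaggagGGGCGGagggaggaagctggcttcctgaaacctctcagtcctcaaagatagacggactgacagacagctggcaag

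Motifs were searched on both strands in these windows and in all 32851 promoters of the same length. The full glucocorticoid response element, taken as AGAACA and its reverse complement TGTTCT with any 3 bases between, was in none of the 4 windows and in 0.00913% of all promoters, and its half-site AGAACA, which every full element contains, was also in none of them and in 19.0% of all. The GC box GGGCGG was in the *Rnpep* window, at -39 to -34 and at -21 to -16 from the start, and in the *Ptpn7* window shown, at -25 to -20, against 35.7% of all promoters. A loose form of the AP-1 motif, TGANTCA with any middle base, was in 7.81% of all promoters. It was matched by TGAATCA across the start of *Ikbke*, a match to the loose form only. An NF-κB motif, taken as GGG and TTTCC with any 2 bases between and found in 1.63% of all promoters, and the E box CACGTG, in 7.15%, had no match in the windows shown. The further *Ptpn7* window had a match to the NF-κB motif, at -46 to -37 from its start, and to the GC box, at -28 to -23. Of the windows shown, that of *Lad1* had the most CpG pairs, with 18, against 14 for *Rnpep*, 10 for *Ptpn7*, 4 for *Ikbke* and a median of 7 over all promoters. These matches describe letters only, and the absence of one says only that those letters are not in that window.

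*Nr3c1* was lower in each *Nr3c1*-Foxp3Cre library, at 6.14, 5.45 and 5.90 log2 CPM, than in each control library, at 7.15, 7.59 and 6.88 (log2 fold change -1.38, SE 0.21, limma adjusted p = 0.120), the direction that the labels give. Among the response genes that the study names, *Tsc22d3* fell by 1.56 in log2 units (SE 0.16, limma adjusted p = 0.0342). *Dusp1* had a log2 fold change of -0.56 (SE 0.13, limma adjusted p = 0.652), with groups apart. *Fkbp5* had one of -0.16 (SE 0.13, limma adjusted p = 0.99998), with overlapping groups. The adjusted p of *Tsc22d3* was 0.0712 in limma without control replicate 3 and 0.0639, 0.140 and 0.154 without *Nr3c1*-Foxp3Cre replicate 1, 2 and 3. All 10 listed Treg markers and all 8 T cell markers had values, with *Il2ra* at 8.20 to 8.75 log2 CPM and *Foxp3* at 3.39 to 4.47. Summed levels of the 9 marker lists overlapped between the groups (exact two-sided permutation tests, p from 0.2 to 1, where 0.1 is the smallest that 3 libraries against 3 allow). Melanocyte genes were abundant in all libraries, at 3605 to 9719 summed CPM in control and 3981 to 10117 in *Nr3c1*-Foxp3Cre libraries. Of 12153 genes, 6, or 0.0494%, were lower at a limma adjusted p under 0.05 and 1, or 0.00823%, was higher, which makes 0.0576% in either direction. Groups were apart, with no overlap between their libraries, for 7.41% of genes (3.73% lower and 3.69% higher), and 3.26% had an unadjusted p under 0.05.

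All 6 of the chosen genes had groups that did not overlap, against the 7.41% of all genes, and 2 of them, *Lad1* and *Rnpep*, were among the 6 genes lower at an adjusted p under 0.05, against the 0.0494%. Both counts follow from how the genes were picked. The other 4 did not reach the adjusted threshold. The unadjusted limma p of *Rab7b*, the highest of the 6, was 0.00535, and the lowest among the other measured genes of the 5 Mb window around them was 0.0103, for *Ube2t*. The gap between these p-values is also partly fixed by how the genes were picked.

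**Figure D1:**
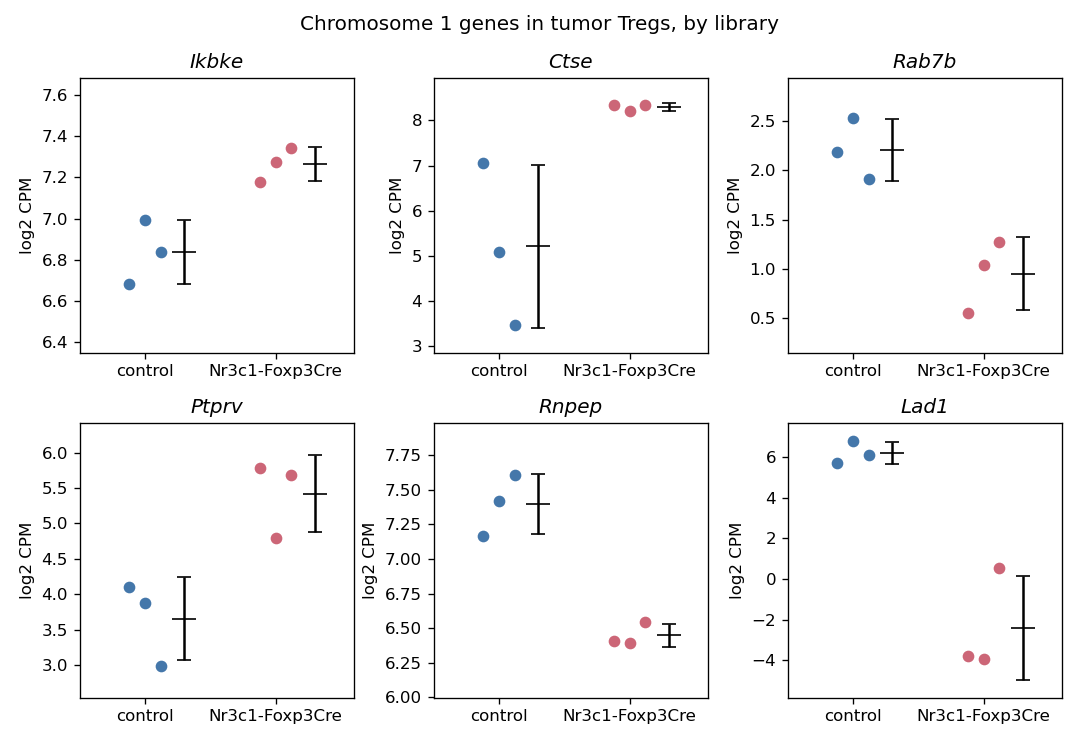
Level of each of the 6 genes in log2 CPM (vertical axes, scaled per gene) in the 3 control and 3 *Nr3c1*-Foxp3Cre libraries, with 1 point a library and, beside the points, the mean and SD. The 2 groups are apart for every gene, and *Ctse* in control Tregs and *Lad1* in *Nr3c1*-Foxp3Cre Tregs have the widest spread.

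*Lad1* (ENSMUSG00000041782.14, chromosome 1 from 135818598 to 135833342, plus strand) showed the widest difference. Control libraries had 5.70, 6.76 and 6.08 log2 CPM, and the 3 *Nr3c1*-Foxp3Cre libraries had -3.77, -3.96 and 0.54. On the linear scale these are 52.0, 108 and 67.4 CPM against 0.0731, 0.0645 and 1.45 CPM. In *Nr3c1*-Foxp3Cre replicate 2 *Lad1* was at the lowest value of the whole library, which it shared with other genes, 11 in all, and in replicate 1 only 7 genes were below it. Replicate 3 stood apart, with 394 genes below *Lad1*. In control libraries, by contrast, *Lad1* was above 64.1%, 81.9% and 70.9% of all genes. The means were 6.18 ± 0.54 log2 CPM (SD, n = 3) in control and -2.40 ± 2.54 (SD, n = 3) in *Nr3c1*-Foxp3Cre Tregs, which puts them -8.58 apart in log2 fold change (SE 1.02, limma adjusted p = 0.0373). So close to the bottom of the scale the size of this fold rests on how missing reads were written, and with log2(CPM + 1) it was -5.70. The groups were 5.17 log2 units apart at their nearest, more than the range within either group. Without control replicate 2 the adjusted p was 0.0530, without control replicate 3 it was 0.217, and without *Nr3c1*-Foxp3Cre replicate 1 or 2 it was 0.159 or 0.140.

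Lower by less than *Lad1* but with little spread was *Rnpep* (ENSMUSG00000041926.15, 135262712 to 135284084, minus strand). The control libraries were at 7.17, 7.42 and 7.60 log2 CPM and the *Nr3c1*-Foxp3Cre libraries at 6.40, 6.39 and 6.55. The *Nr3c1*-Foxp3Cre values were within 0.15 of one another, and the nearest control value was 0.62 above them. At 7.40 ± 0.22 (SD, n = 3) against 6.45 ± 0.085 (SD, n = 3), the fitted difference was -0.95 in log2 (SE 0.13, limma adjusted p = 0.0480), or 0.517 of the control level. *Rnpep* remained well expressed in *Nr3c1*-Foxp3Cre Tregs, above 76.2% to 78.8% of all genes. Of the fits without one library, only that without control replicate 1 had an adjusted p under 0.05, at 0.0162, and without the other libraries in turn it ranged from 0.0883 to 0.258. An antisense transcript, Gm26642, overlaps the end of *Rnpep* and has no values in the table, and since the library kit does not mark strand, its reads cannot be told apart from those of *Rnpep*.

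*Ctse* (ENSMUSG00000004552.16, 131638306 to 131675505, plus strand) was higher in *Nr3c1*-Foxp3Cre Tregs and behaved unlike the others within the control group. Its control libraries had 7.07, 5.09 and 3.47 log2 CPM, and its *Nr3c1*-Foxp3Cre libraries 8.35, 8.20 and 8.35. The control libraries thus spread over 3.60 log2 units, from 11.1 to 134 CPM, and the *Nr3c1*-Foxp3Cre libraries over 0.14, from 295 to 326 CPM. In the latter *Ctse* was above 95.2% to 95.8% of all genes. The means were 5.21 ± 1.80 (SD, n = 3) and 8.30 ± 0.083 (SD, n = 3), a difference of 3.09 in log2 (SE 0.69, limma adjusted p = 0.544). Without control replicate 1, the control library nearest to the *Nr3c1*-Foxp3Cre level, the log2 fold change was 4.02 and the limma adjusted p 0.00442, and without control replicate 3 they were 2.22 and 0.723. The first was the only one of 13 alternative settings in which *Ctse* passed the adjusted threshold. Summed melanocyte markers, all 9 with values, were at 9719, 3605 and 7280 CPM in the control libraries and at 6538, 10117 and 3981 CPM in the *Nr3c1*-Foxp3Cre libraries. Of 8 dendritic cell markers, whose cells can also express *Ctse*, 5 had values (*Flt3*, *Zbtb46*, *Xcr1*, *Cd209a* and *Ccr7*) and *Itgax*, *Clec9a* and *Siglech* had none. The 5 with values summed to 169 to 234 CPM in control and 129 to 173 CPM in *Nr3c1*-Foxp3Cre libraries. The 11 macrophage markers, all with values, summed to 393 to 579 CPM in control and 280 to 560 CPM in *Nr3c1*-Foxp3Cre libraries. Such a sum does not tell which cells gave the reads. By its methods the study left out, when sorting, cells stained for CD11c, the product of *Itgax*, or CD11b. The part of any of these cell types in the *Ctse* values was not tested.

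*Rab7b* (ENSMUSG00000052688.12, 131688695 to 131715439, plus strand), which starts 13.2 kb after the end of *Ctse* and is read in the same direction, differed in the opposite direction. Its control libraries were at 2.18, 2.54 and 1.91 log2 CPM and its *Nr3c1*-Foxp3Cre libraries at 0.54, 1.04 and 1.27. This was the lowest of the 6 genes in control Tregs, at 3.76 to 5.81 CPM, and it was at 1.46 to 2.40 CPM in *Nr3c1*-Foxp3Cre Tregs. The means of 2.21 ± 0.32 (SD, n = 3) and 0.95 ± 0.37 (SD, n = 3) differed by a log2 fold change of -1.26 with SE 0.35, and the limma adjusted p was 0.99998. The distance between the nearest libraries of the 2 groups, 0.64, was close to the range of 0.63 within control libraries and of 0.72 within *Nr3c1*-Foxp3Cre libraries. On the log2(CPM + 1) scale the difference was -0.94. The control library with the highest *Ctse*, replicate 1, was neither the highest nor the lowest for *Rab7b*.

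At the other end of the segment, *Ptprv* (ENSMUSG00000097993.7, 135108497 to 135132594, minus strand) was at 4.10, 3.87 and 2.99 log2 CPM in control libraries and at 5.78, 4.79 and 5.69 in *Nr3c1*-Foxp3Cre libraries. Each *Nr3c1*-Foxp3Cre library was above each control library by at least 0.69, although both groups ranged over about 1 log2 unit. The means were 3.66 ± 0.59 (SD, n = 3) and 5.42 ± 0.54 (SD, n = 3), a difference of 1.76 in log2 (SE 0.33, limma adjusted p = 0.289), or a ratio of 3.40. Its neighbor *Ptpn7*, a tyrosine phosphatase of lymphocytes that starts 105 bases away on the other strand, was at 8.56 ± 0.24 (SD, n = 3) in control and 8.67 ± 0.24 (SD, n = 3) in *Nr3c1*-Foxp3Cre Tregs, with overlapping groups and 0.10 as the log2 fold change (SE 0.15). The window printed for *Ptpn7* therefore holds the start of a gene whose groups were apart and a listed start of one whose groups were not. *Ptpn7* has the further listed start too, and which start gave its reads was not tested. The antisense transcript Gm10535 also overlaps *Ptprv* and has no values in the table.

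The smallest difference belonged to *Ikbke* (ENSMUSG00000042349.13, 131254343 to 131279606, minus strand). Control libraries were at 6.68, 6.99 and 6.84 log2 CPM and *Nr3c1*-Foxp3Cre libraries at 7.18, 7.28 and 7.34. The groups were 0.19 apart at their nearest, less than the range of 0.31 within control libraries. With means of 6.84 ± 0.15 (SD, n = 3) and 7.27 ± 0.081 (SD, n = 3), the difference was 0.43 in log2 (SE 0.11, limma adjusted p = 0.827), a ratio of 1.35. The antisense transcripts Gm28914 and Gm28913 overlap *Ikbke* and have no values in the table. *Srgap2*, the next measured gene 5.64 kb away on the same strand, was also higher without overlap, at 5.49, 5.63 and 5.70 in control and 6.08, 5.74 and 5.92 in *Nr3c1*-Foxp3Cre libraries (log2 fold change 0.31, SE 0.13).

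Per kb of annotated exon, the order of the 6 genes differed between the groups. In control Tregs the mean levels were 4.59 log2 CPM per kb for *Rnpep*, 4.41 for *Lad1*, 3.67 for *Ikbke*, 3.55 for *Ctse*, 0.85 for *Ptprv* and 0.0015 for *Rab7b*. *Rnpep* and *Lad1* did not differ beyond the SD of *Lad1*, nor *Ikbke* and *Ctse* beyond that of *Ctse*. In *Nr3c1*-Foxp3Cre Tregs *Ctse* came first, at 6.63 log2 CPM per kb, followed by *Ikbke* at 4.09, *Rnpep* at 3.64, *Ptprv* at 2.61, *Rab7b* at -1.26 and *Lad1* at -4.16. There, *Rab7b* and *Lad1* were separated by little more than the SD of 2.54 of *Lad1*. Exon length was the union of all annotated transcripts, so that an expressed short isoform would place a gene higher.

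The neighbors of these genes were counted to describe where along the chromosome groups were apart. The 5 Mb window used for this starts 254 kb before *Ikbke* and ends 167 kb after *Lad1*. GENCODE M21 places 89 protein-coding genes in it, and 50 genes of the window, 47 of them protein-coding, had values. Counting the 6 chosen genes, the groups did not overlap for 11 of the 50, 6 higher and 5 lower, or 22.0%, which the choice of members partly fixes. Of the remaining 44 genes, 5, or 11.4%, had groups without overlap and 4, or 9.09%, had an unadjusted p under 0.05, next to 7.41% and 3.26% of all genes. By limma, 0 of the 44 had an adjusted p under 0.05. Their median log2 fold change was 0.0072 and their median absolute log2 fold change 0.14, against 0.11 for all genes with a position. The 5 genes were *Dyrk3*, a dual specificity kinase (log2 fold change -0.76), *Srgap2*, *Mdm4*, a p53 inhibitor (0.26), *Etnk2*, an ethanolamine kinase (3.12), and *Ube2t*, a ubiquitin-conjugating enzyme of DNA repair (-0.52). *Etnk2* was close to the bottom of the scale in control libraries, at -0.21, -0.083 and -4.75 log2 CPM, against 1.61, 0.26 and 2.45 in *Nr3c1*-Foxp3Cre libraries. Its log2 fold change was 1.59 without control replicate 3 and 1.31 with log2(CPM + 1).

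**Figure D2:**
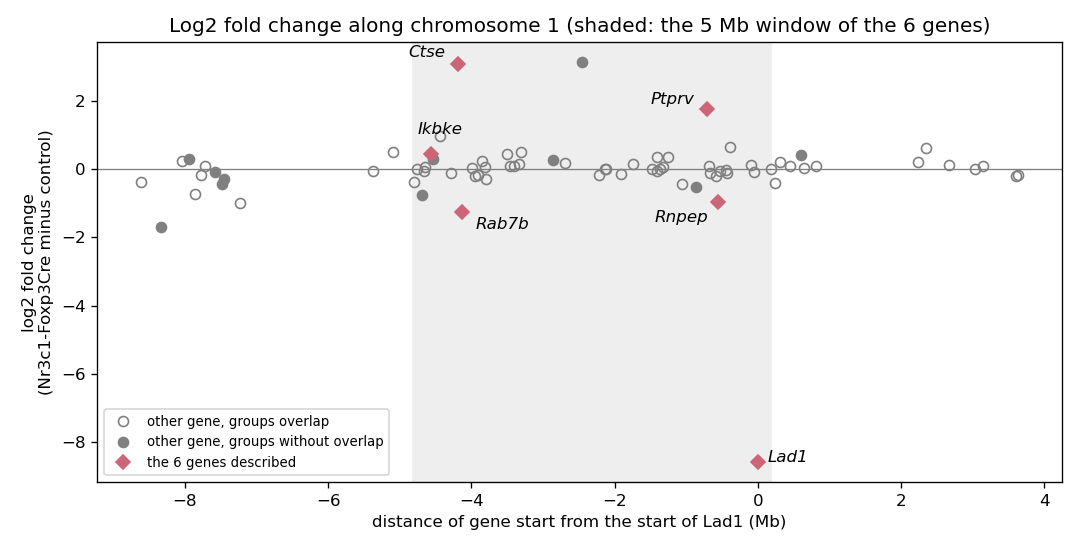
Log2 fold change of each measured gene (vertical axis) against the distance of its start from the start of *Lad1* in Mb (horizontal axis), over the 5 Mb window and 5 Mb on each side. Diamonds are the 6 genes described, filled circles other genes whose groups did not overlap and open circles the remaining genes, most of which sit close to 0 between the diamonds.

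The nearest measured genes on each side of the 6 were 10 others, with log2 fold changes from -0.52 to 0.31, of which 2, *Srgap2* and *Ube2t*, had groups without overlap, a share that was 7.41% over all genes. *Lad1* lay between *Phlda3*, a p53-induced gene 49.5 kb away (log2 fold change -0.080, SE 0.36), and *Tmem9*, just outside the window at 175 kb (-0.0075, SE 0.17). *Rnpep* lay between the pseudogene *Gm4204* (-0.19, SE 0.21) and *Timm17a*, a subunit of the mitochondrial import channel 11.1 kb away (-0.054, SE 0.20). *Slc41a1*, a magnesium transporter on the far side of *Rab7b*, was at 0.016 (SE 0.18), and *Fam72a*, before *Ctse*, at -0.13 (SE 0.30). *Rassf5*, 9.08 kb from *Ikbke*, was at 0.071 (SE 0.14), on the same scale of log2 fold change. *Il10*, the Treg cytokine gene at the start of the window, named here for its role after its values were seen, was at 4.81, 5.87 and 5.59 log2 CPM in control and 5.56, 4.35 and 5.19 in *Nr3c1*-Foxp3Cre libraries, with overlap.

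**Figure D3:**
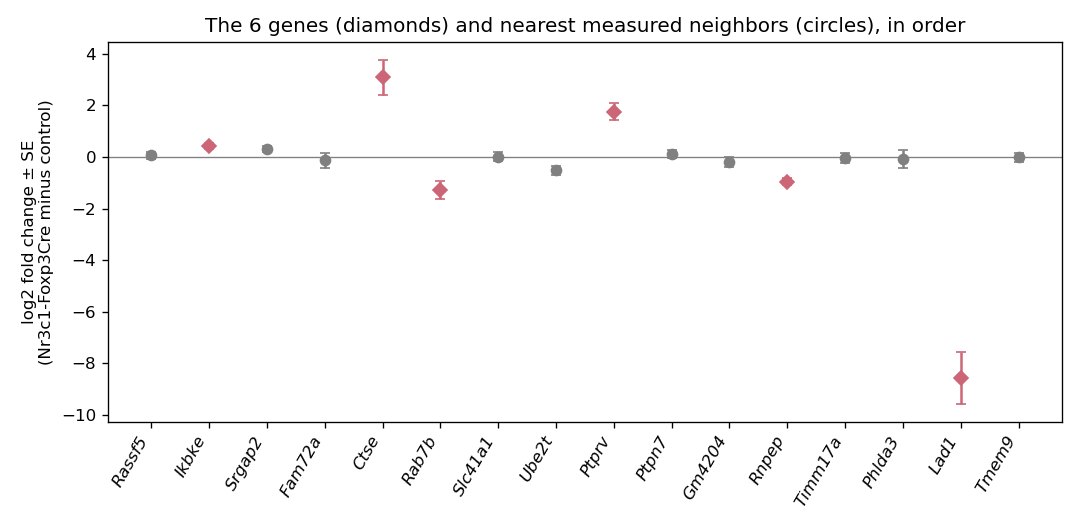
Log2 fold change with its SE (vertical axis) for the 6 genes (diamonds) and the measured genes nearest to them (circles), in chromosomal order from left to right and not to scale. *Ctse* and *Rab7b*, which are adjacent, lie on opposite sides of 0, and the circles lie between -0.52 and 0.31.

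In the 5 Mb before this window, 5 of 13 measured genes, or 38.5%, had groups without overlap, and 5 had an unadjusted p under 0.05. In the 5 Mb after it there was 1 of 14, or 7.14%. Over the remainder of chromosome 1 the share without overlap was 9.28% of 657 genes. When every chromosome was divided into 5 Mb windows counted from 1 Mb, 234 windows held at least 20 measured genes. The window of the 6 genes held 3 genes with an unadjusted p under 0.001 (*Lad1*, *Rnpep* and *Ptprv*), where the others held at most 1, and 5 genes without overlap whose log2 fold change exceeded 1 in size, where the others held at most 4. Those 5 were *Ctse*, *Rab7b*, *Ptprv*, *Lad1* and *Etnk2*. With log2(CPM + 1) the log2 fold change of *Rab7b* was -0.94, less than 1 in size, and that of *Etnk2* 1.31. The windows were not recounted on that scale. By the plain count of genes without overlap, 11 of 50, the window of the 6 genes was matched by 1 other, with 11 of 104, on chromosome 7. Windows differ in their number of genes. The share without overlap was higher from 56 Mb of chromosome 18, at 7 of 24, and from 26 Mb of chromosome 14, at 6 of 23. The former held 4 genes without overlap whose log2 fold change exceeded 1 in size. The counts of the window of the 6 genes describe a segment that was singled out for them.

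Neither engineered locus lies on this chromosome: *Nr3c1* is on chromosome 18 and *Foxp3* on chromosome X. Within 5 Mb of *Nr3c1*, which itself was left out, 8 of 62 measured genes, or 12.9%, had groups without overlap, and 5 had an unadjusted p under 0.05. Within 5 Mb of *Foxp3* these were 2 of 35, or 5.71%, and 0. Over all genes the shares were 7.41% and 3.26%. No gene near either locus had a limma adjusted p under 0.05. By the sample labels, the 2 groups differ in their Cre allele and, through it, in GR. The deposited name WT for the controls leaves unsettled whether they shared the floxed allele. No source used here gives the genotype of these mice along chromosome 1, and an effect of GR on these genes cannot be told apart from a difference in inherited sequence between the mice.

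Besides the 6 themselves, 94 genes of their families or pathways had values, and 0 had a limma adjusted p under 0.05, higher or lower. Without adjustment 4 had a p under 0.05, and for 6 the groups did not overlap, next to 3.26% and 7.41% of all genes. Over all genes the median log2 fold change was -0.0014. Among 16 other cathepsins and related genes the median was -0.13, with 13 lower and 3 higher. *Ctsc*, which activates granule proteases, was at 7.96 ± 0.11 log2 CPM in control and 7.64 ± 0.15 in *Nr3c1*-Foxp3Cre Tregs (SD, n = 3 each), and *Ctsh* had a log2 fold change of -0.36 with overlapping groups, while the highest of the 16 was 0.49, against 3.09 for *Ctse*. The groups did not overlap for 4 of the 16, all lower, where 3.73% of all genes were lower without overlap. For 16 other aminopeptidases the median was -0.0055 and no groups were apart. *Npepps*, the one with the lowest p, had -0.31 (SE 0.22), against -0.95 for *Rnpep*.

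The Rab GTPases of late endosomes and their partners had a median log2 fold change of -0.0043 over 24 genes. *Rab7*, the abundant relative of *Rab7b*, was at 8.72 ± 0.11 log2 CPM in control and 8.71 ± 0.13 in *Nr3c1*-Foxp3Cre Tregs (SD, n = 3 each), and *Rab5c*, of early endosomes, had one of -0.66 (SE 0.28). IKK-related kinases and partners had a median of 0.085 over 19 genes, with *Tbk1* at 0.097 (SE 0.12) and *Ikbkg*, which encodes NEMO and had the lowest p, at 0.18 (SE 0.11). Of 11 other receptor tyrosine phosphatases, with a median of 0.10, *Ptpro* alone had groups apart, at 0.56, 0.66 and 0.28 log2 CPM in control and -2.53, -3.96 and -1.21 in *Nr3c1*-Foxp3Cre libraries. *Ptprc*, the leukocyte antigen CD45, was at 0.20 in log2 fold change (SE 0.12). Only 8 other hemidesmosome, keratin and basement membrane genes had values, with a median of 0.061, and *Itga6*, an integrin subunit, had the lowest p, at 0.48 (SE 0.21). Of 7 epithelial markers, 2 had values, and they summed to 8.69 to 18.0 CPM in control and 9.17 to 12.1 CPM in *Nr3c1*-Foxp3Cre libraries, with overlap.

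**Figure D4:**
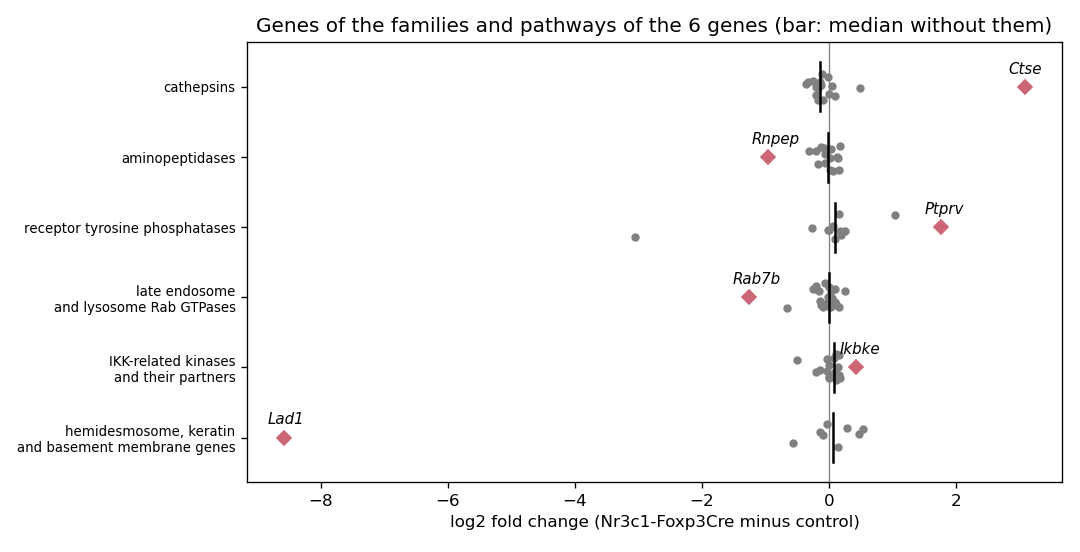
Log2 fold change (horizontal axis) of the 6 genes (diamonds) and of the other measured members of their families or pathways (circles), 1 list a line, with a bar at the median of the circles. The medians lie between -0.13 and 0.10, and each diamond lies beyond the circles of its list on its own side of 0.

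Genes whose profile over the 6 libraries was most like each of the 6 were sought among all genes with a mean of at least 1 log2 CPM. The 3 closest to each, 18 in all, had a Pearson r of 0.970 to 0.998 over 6 libraries, and between 9 and 25 genes per member had an r of at least 0.95. None of the 18 was another of the 6, and 1, *Ddx59*, close to *Ptprv* in profile (r = 0.979), was on chromosome 1, at 136415271. The closest to *Lad1* were *Ttf2* (r = 0.998), *Zbtb45* and *Gpx3*, to *Rnpep* *Rasgef1a* (r = 0.981), *3830406C13Rik* and *Ten1*, and to *Ctse* *1810032O08Rik* (r = 0.985), *Luc7l* and *Rad51c*. For *Rab7b* they were *Slc43a3* (r = 0.978), *Apool* and *Srp19*, for *Ptprv* also *Elp2* and *Ckap5*, and for *Ikbke* *Ccnl2* (r = 0.991), *Ncoa5* and *Ap1g2*. With 6 libraries in 2 groups such values follow largely from the difference between the groups, and they are given as a description.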

How the data were processed

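Reads had been trimmed (Cutadapt), aligned to mm10 (STAR) and turned by the authors into gene-level estimates (RSEM, GENCODE M21 annotation), genes below 1 CPM had been dropped and libraries quantile normalized. The deposited values are log2 CPM of 12153 genes after that normalization by the authors, in 3 control and 3 *Nr3c1*-Foxp3Cre libraries. Read depth is unknown, and the number of libraries limits the precision. Quantile normalization gives all libraries nearly one distribution, so values at the bottom are set by rank. The lowest value still differed between libraries, at -6.90 log2 CPM in each control library and -7.24 in *Nr3c1*-Foxp3Cre replicate 1. In *Nr3c1*-Foxp3Cre replicates 2 and 3 it was -3.96, shared by 11 genes in each. Values near the bottom, as for *Lad1*, therefore do not rest on one floor.

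Differences were estimated for the whole table by limma 3.58.1 (lmFit and trended eBayes, R 4.3.3) with 1 term, genotype, and p-values were Benjamini-Hochberg adjusted over all genes, with a threshold of 0.05. The voom weights of the study need counts and were not used. Positions came from GENCODE M21 for 12130 genes, or 99.8%. Exact permutation tests used SciPy 1.17.1. The 6 genes and all lists were chosen with earlier results of these data known. Named genes were the 6, their nearest measured neighbors, window genes at an unadjusted p under 0.05 or without overlap, the response genes that the study names, list members at an unadjusted p under 0.05 or with the lowest p, a few list members named for their role after their values were seen, and the 3 genes closest to each in profile.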

Additional observations from a re-analysis of the deposited data

How the results depend on the processing

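The 6 genes kept their direction in all 13 alternative settings, with log2 fold changes from -10.04 to -5.70 for *Lad1*, -1.07 to -0.85 for *Rnpep*, -1.42 to -0.94 for *Rab7b*, 2.22 to 4.02 for *Ctse*, 1.43 to 2.08 for *Ptprv* and 0.35 to 0.51 for *Ikbke*. *Lad1* had a limma adjusted p under 0.05 in 7 of them, *Rnpep* in 6 and *Ctse* in 1. In limma without the trend term in eBayes, and in a fit with a replicate block, 0 genes were lower and 0 higher at an adjusted p under 0.05, and so 0 of the 6, while 469 and 275 genes had an unadjusted p under 0.05. Under the replicate block the adjusted p was 0.137 for *Lad1*, 0.273 for *Rnpep* and 0.137 for *Tsc22d3*, which was at 0.221 without the trend. No source used here says that same-numbered libraries were handled together. Their deviations from the group means had correlations of -0.33 to -0.025 over genes, and those of different-numbered libraries had -0.27 to 0.36. Deviations within a group of 3 sum to 0, so these correlations cannot show whether libraries were paired. With vooma weights 2 genes were higher. Leaving out each library in turn gave 0 to 5 lower genes, 0 to 3 higher genes, 0 to 2 of the 6 lower past the threshold, and 12 to 19 window genes without overlap. Of the last, 19 came without control replicate 2 and 17 without *Nr3c1*-Foxp3Cre replicate 3. In all these fits fewer libraries need to be apart, and no share over all genes is given for them. The counts therefore cannot be set beside the 7.41% of all genes, which is for 3 libraries against 3. Over these fits the log2 fold change of several neighbors turned sign: -0.39 to 0.27 for *Phlda3*, -0.22 to 0.15 for *Timm17a*, -0.033 to 0.23 for *Ptpn7*, -0.046 to 0.18 for *Rassf5*, -0.11 to 0.16 for *Slc41a1*, -0.16 to 0.12 for *Tmem9* and -0.30 to 0.020 for *Fam72a*. The other alternatives, robust eBayes, a minimum mean of 1, log2(CPM + 1) and median centring, kept all counts within 1.5 times. Depth is unknown, so the limit of detection for *Lad1* in *Nr3c1*-Foxp3Cre libraries cannot be stated.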
